A study of Mus musculus with 10 samples.

Results

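The replication-dependent histone genes of the mouse are the gene copies whose symbols begin with Hist1h, Hist2h, Hist3h or Hist4h. The table deposited for this study held 67 such rows among 26335, and 5 of them had a mean log2 CPM above 0, the level below which a row was not tested. CPM gives the reads of a gene relative to the total of its library. RNA was sequenced from cultured mouse cells of an mSCLC line, which the study derived from a primary small cell lung tumour. The 5 control cultures were kept with the solvent DMSO and the 5 treated cultures with stiripentol, an antiseizure drug given at 250 µM in the study's methods, both for 48 h in RPMI medium with serum. Nothing in the records separates cultures from repeat wells of 1 culture, so p-values measure the spread between these samples, which may be technical. The cells were checked against 9 markers of neuroendocrine small cell lung cancer. Of these, 6 had rows and 2, Ncam1 among them, passed the filter. Insm1, Chgb and Syp had mean log2 CPM of -3.75, -3.87 and -2.24, and Ncam1 had a mean of 6.92. The fibroblast markers Col1a1 and Pdgfra had mean log2 CPM of 6.32 and 5.68. Insm1, Chgb and Syp thus lay below the filter in a line labelled small cell lung cancer.

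Histones package DNA into nucleosomes. A core of H2A, H2B, H3 and H4 is wrapped by DNA, and linker histone H1 binds where the DNA enters and leaves. Most replication-dependent copies have no intron, are read mainly in S phase, and make mRNAs that end in a short stem-loop rather than a poly(A) tail. The stem-loop is bound by SLBP, the factor that carries these mRNAs through 3′ processing, and some copies can also be read through to a poly(A) signal further on. The study's methods name 3′ mRNA libraries, a kit primed on poly(A) tails, while its sample records name total RNA libraries. Levels of mRNAs without a tail would be read differently by these kits, and which was used could not be settled from the values.

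The libraries of each group fell into 2 replicate sets, found from the correlation of the deposited values without the histone rows. Set A held controls 4 and 5 with stiripentol 1 and 2, and set B held controls 1 to 3 with stiripentol 3 to 5. The correlation split each group on its own. Which control set belongs with which stiripentol set was taken from the numbering of the study's own table. Libraries of 1 group and set correlated at 0.983 to 0.997 across genes, and libraries of 1 group but different sets at 0.920 to 0.939. Across groups, libraries correlated at 0.880 to 0.936 in the same set and at 0.840 to 0.938 in different sets. These ranges overlap, so the match of sets across groups, and the changes within sets, rest on that numbering. What sets the 2 sets apart is not in the labels. Recovered totals ranged from 22375625 reads in control 5 to 65299372 in control 1. A gene with no read had a log2 CPM of -4.82 in controls 1 to 3 and -4.74 in the other 7 libraries. Each library was scaled to its own total, such as 65299812.6 against 65299372 recovered reads in control 1. The amount added before the log, 0.837 to 2.38 reads, differed as CPM between controls 1 to 3 and the rest. It weighs most in rows with few reads. Controls 1 to 3 are all the controls of set B, so within set B this difference in processing cannot be told apart from treatment. In control it cannot be told apart from the set, so it also enters each difference between the sets. In set A the added amount was the same. The change of each tested histone gene is given over all libraries and within each set.

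The 3′ ends show what the members share in sequence. All 67 rows matched GENCODE M21 on GRCm38, with 64 protein-coding genes and 3 pseudogenes. The stem-loop has 6 paired bases on each side of a 4-base loop, 16 bases in all. It was found within 100 bases after the stop codon in 45 of the 53 members with an annotated 3′ UTR. Over the genome, 48 of 21037 coding genes with an annotated 3′ UTR held it in the same window, which is 0.228%. The other 3 were H2afx, H2bfm and Hist1h1t, which were not among the 67 rows. The members carried 8 different versions, and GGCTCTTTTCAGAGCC, the commonest, was found in 26 genes. Of the 5 tested genes, 3 held that version, shown here with the stem-loop in capitals and 5 bases on each side.
Hist1h1c, chr13:23739512-23739527, plus strand: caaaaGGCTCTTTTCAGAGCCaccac
Hist3h2a, chr11:58955172-58955187, plus strand: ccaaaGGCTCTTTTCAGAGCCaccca
Hist2h2aa1, chr3:96246032-96246047, plus strand: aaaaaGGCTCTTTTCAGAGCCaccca
Hist1h4n, an H4 gene below the filter, carried another version at chr13:21831798-21831813 on the minus strand: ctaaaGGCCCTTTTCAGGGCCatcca
The annotated transcript of Hist2h2aa1 ended 35 bases after its stem-loop, as a short histone mRNA does. That of Hist1h1c ran on for 840 bases and that of Hist3h2a for 1643. No stem-loop was found in the annotated transcripts of Hist1h2bc and Hist2h2be.

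Long transcripts with a poly(A) signal were common among the genes that could be tested. An AATAAA or ATTAAA signal lay in the last 50 bases of 3 of the 5 tested genes and of 13 of the 59 protein-coding genes below the filter. The annotated transcript reached 1000 bases in 4 of 5 and 14 of 59, with median lengths of 1560 and 530 bases. The stretch around each of the 3 signals is shown, with the signal in capitals.
Hist1h1c: gcttctAATAAAaagcgtttagttttcatt
Hist3h2a: atgcccAATAAAataagagtacgtgtataa
Hist2h2be: attattAATAAAgttaccgattagtttc
The signals ended 20, 28 and 16 bases before the annotated transcript ends. Read counts grow with transcript length where whole transcripts are sequenced, and the part of length in which genes passed the filter was not tested.

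**Figure D1:**
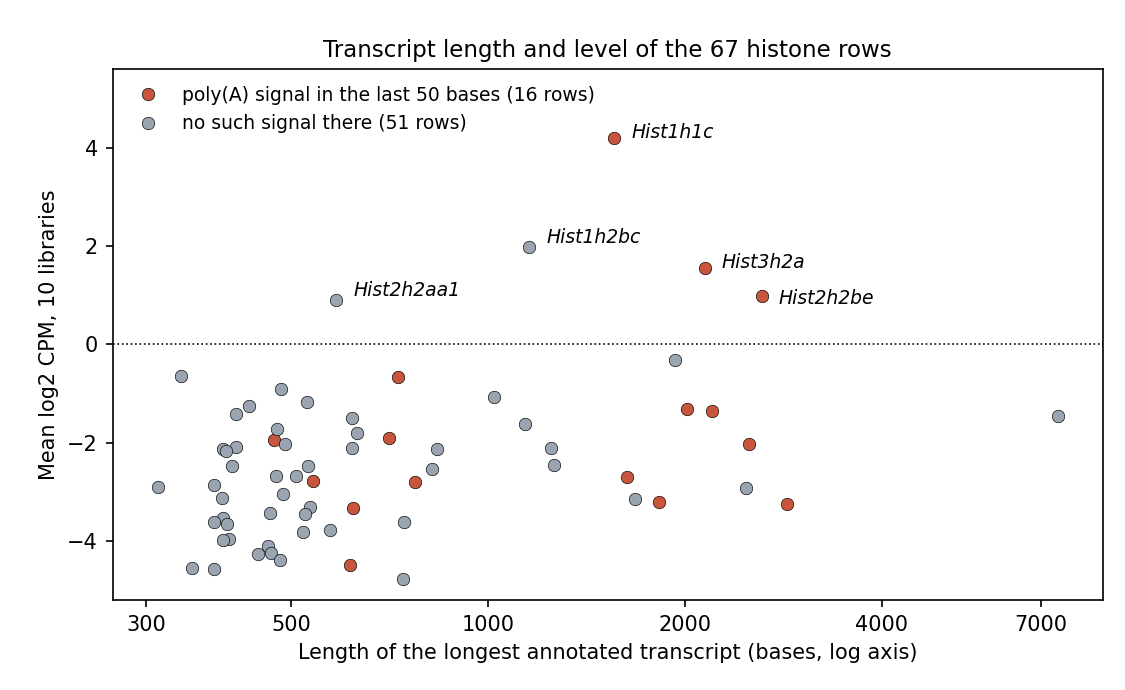
Mean log2 CPM over 10 libraries (y axis) against the length of the longest annotated transcript in bases (x axis, log scale), 1 point for each of the 67 histone rows. Red points have a poly(A) signal in the last 50 bases, the dotted line is the filter, and the 5 named genes are those tested; 4 of these are longer than 1000 bases.

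The members' level was low. The highest, Hist1h1c, ranked 8084 of 26335 rows by mean log2 CPM, and the other 4 tested genes ranked 10731 to 11577. In 58 of the 67 rows no library had more than 100 reads. Of the 62 rows below the filter, 41 had 0 reads in some library and 1, Hist1h1a, had no read in any. The 5 tested genes held 69.7% of all member reads and Hist1h1c alone 43.3%. By class, 1 of 5 H1 rows, 2 of 19 H2A rows and 2 of 18 H2B rows were tested, while none of the 12 H3 rows and 13 H4 rows was. The highest H4 mean was -0.66, for Hist1h4i, and the highest H3 mean was -1.07, for Hist2h3c2. The Hist1 cluster on chr13 held 53 rows with 2 tested, Hist2 on chr3 held 10 with 2, Hist3 on chr11 held 3 with 1, and the single Hist4 row on chr6 was not tested.

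**Figure D2:**
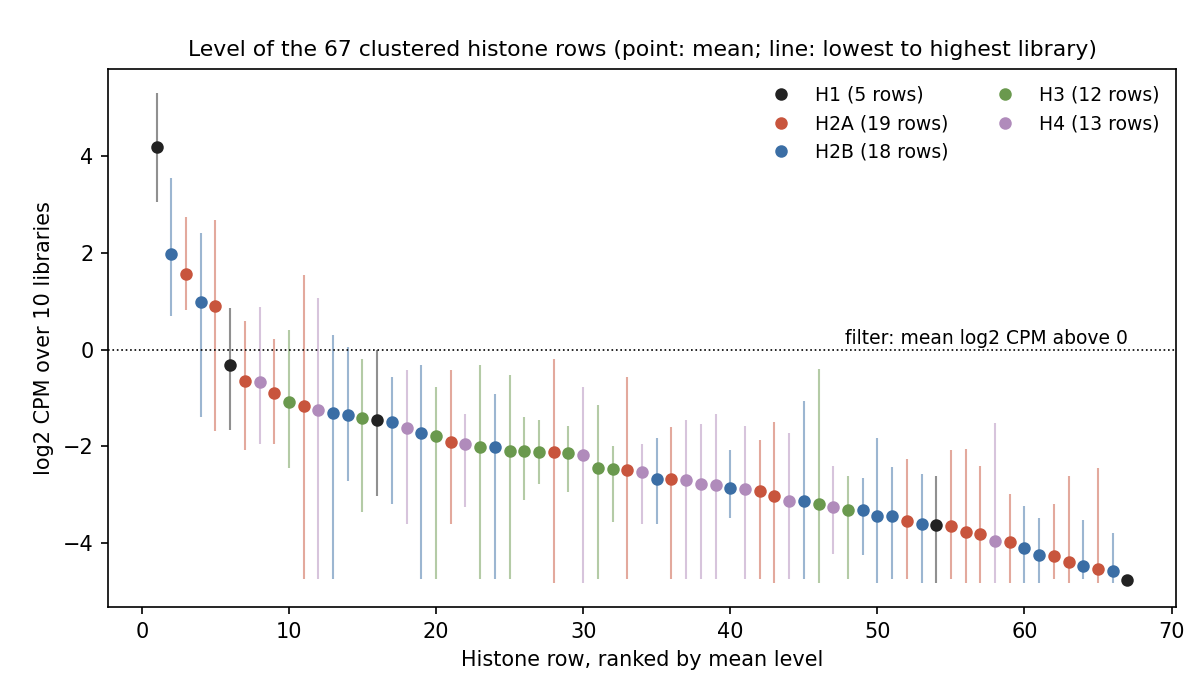
Log2 CPM (y axis) of the 67 histone rows, ranked from the highest mean to the lowest (x axis), with points for the mean over 10 libraries, lines from the lowest to the highest library and colours for the histone class. Only 5 points lie above the dotted filter line at 0, and no H3 or H4 row does.

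Per kilobase of the longest annotated transcript, the order of the levels changed below the top. This scale applies only if whole transcripts were sequenced, which the kits named do not settle. Hist1h1c had a median of 19.1 CPM per kilobase in control, followed by Hist1h2bc with 4.88 and Hist2h2aa1 with 4.58. The control ranges of these last 2, 3.50 to 10.1 and 2.17 to 10.8, overlapped, so their order is not set apart from the spread. Hist2h2be and Hist3h2a, with the longest transcripts of the 5, had medians of 1.59 and 1.57 CPM per kilobase. By mean over all libraries they ranked 11 and 7, behind the untested rows Hist1h2al, Hist2h2aa2 and Hist1h4n at ranks 4, 5 and 6.

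After stiripentol, 4 of the 5 tested histone genes fell and none rose. They were the linker histone gene Hist1h1c, the H2B genes Hist2h2be and Hist1h2bc, and the H2A gene Hist3h2a. Over all 12306 genes tested, 14.1% were called lower and 13.6% higher at an adjusted p under 0.05. The median log2 change of the 5 genes was -1.48, against -0.056 over all genes. Every stiripentol library lay below every control library in the same 4 genes, which was so for 14.3% of all genes. Some markers of other cells moved with the groups. Of 4 fibroblast markers, 2, Col1a2 and Pdgfra, were called lower, with changes of -2.30 and -1.27, and none was called higher. Within set A, 2 of the 4 were called lower and 1 higher, and within set B 3 were called lower and 1 higher. Of all genes, 47% were called lower and 25.8% higher in set A, and 26.5% and 36.9% in set B. The summed level of the 4 was 167 to 392 CPM in control and 105 to 127 CPM in stiripentol libraries. Of 3 immune markers, 2 were tested and only Cd68 was called, with a rise of 3.21. Ptprc, a marker of white blood cells, had 7 reads in all controls together and 0 in stiripentol libraries. The summed level of the 3 was 6.41 to 18.6 CPM in control and 58.8 to 103 CPM in stiripentol libraries. Their part in the histone changes was not tested. In RNA from whole cultures, fewer cells that read a gene and less of its RNA in each cell cannot be told apart.

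**Figure D3:**
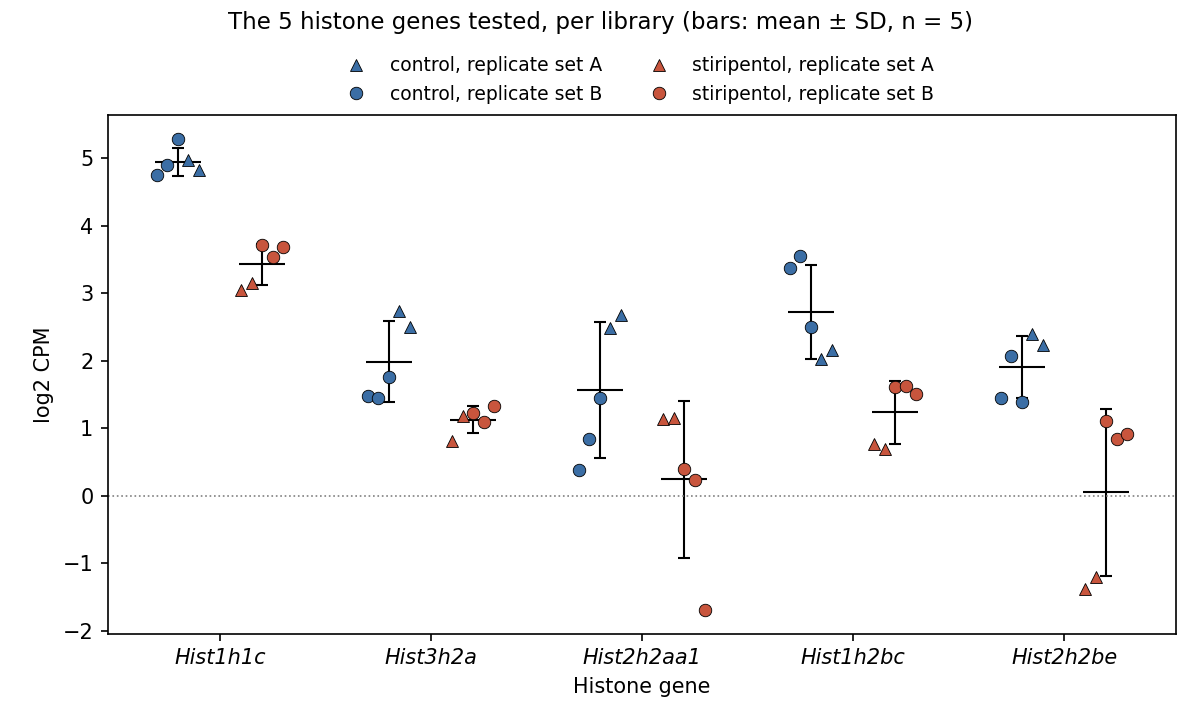
Log2 CPM (y axis) of the 5 tested histone genes (x axis) in each library, with controls in blue, stiripentol in red, triangles for replicate set A, circles for set B, and bars for the mean ± SD of 5 libraries. The groups overlap in Hist2h2aa1 only, and the 2 set A stiripentol libraries of Hist2h2be lie well below the other 3.

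Hist1h1c (ENSMUSG00000036181.2), at chr13:23738808-23740367 on the plus strand, makes the linker histone H1.2 from a single exon. Its log2 CPM was 4.75, 4.90, 5.29, 4.97 and 4.83 in controls 1 to 5 and 3.06, 3.15, 3.72, 3.54 and 3.69 in stiripentol 1 to 5. All controls lay above all stiripentol libraries by a wide margin. It fell by 1.52 on the log2 scale (SE 0.18, adjusted p = 0.000368 by limma), or 2.87-fold, from 31.1 ± 4.77 to 10.9 ± 2.25 CPM (SD, n = 5 each). It was called in both sets, with log2 changes of -1.80 in set A and -1.33 in set B. The difference between these did not pass the test (-0.46, adjusted p = 0.0666 by limma). The control level differed little between the sets, by -0.082 on the log2 scale (adjusted p = 0.643 by limma). Only 5.07% of the 100-base windows of its transcript were shared with another member.

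Hist2h2be (ENSMUSG00000068854.7) is an H2B gene at chr3:96221119-96223738 on the plus strand, with 1 exon of 2620 bases and no 100-base window in common with another member. Its log2 CPM was 1.45, 2.07, 1.39, 2.40 and 2.24 in controls 1 to 5 and -1.38, -1.20, 1.10, 0.84 and 0.92 in stiripentol 1 to 5. The treated libraries split by set, with 21 and 23 reads in set A and 102 to 122 in set B. Over all libraries it fell by 1.86 (SE 0.54, adjusted p = 0.0275 by limma), the largest change of the 5. It fell by 3.62 in set A and fell by 0.68 in set B, and both were called. The difference of these changes, -2.93, had an adjusted p of 1.63e-05 by limma. The call over all libraries was lost without control 2, 4 or 5 or stiripentol 1 or 2, at adjusted p of 0.0513 to 0.0612. A difference between the sets was common, since 63.3% of all genes tested showed one.

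Hist1h2bc (ENSMUSG00000018102.5) is an H2B gene at chr13:23684199-23692908 on the plus strand, annotated with 2 exons. Its log2 CPM was 3.37, 3.55, 2.50, 2.03 and 2.16 in controls 1 to 5 and 0.77, 0.70, 1.61, 1.63 and 1.50 in stiripentol 1 to 5. Within each group it also split by set, with set A below set B in both. It fell by 1.48 (SE 0.36, adjusted p = 0.0131 by limma). The change was -1.36 in set A and -1.56 in set B, and their difference of 0.20 did not pass the test (adjusted p = 0.642 by limma). Of the 100-base windows of its transcript, 25.4% were shared with other H2B genes, so some of its reads could be split between copies. The 7 libraries with the same added amount include only controls 4 and 5. In these the change was -0.85 (adjusted p = 0.138 by limma) and was not called.

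Hist3h2a (ENSMUSG00000078851.4) is an H2A gene at chr11:58954685-58956830 on the plus strand, in 1 exon with no window in common with another member. Its log2 CPM was 1.48, 1.46, 1.76, 2.74 and 2.50 in controls 1 to 5 and 0.81, 1.18, 1.23, 1.10 and 1.34 in stiripentol 1 to 5. Controls 4 and 5, of set A, stood above the other 3, while the treated libraries lay close together. It fell by 0.86 (SE 0.29, adjusted p = 0.0492 by limma), just past the threshold. It fell by 1.63 in set A, and in set B the change of -0.35 did not pass the test (adjusted p = 0.0804 by limma). The difference between the sets was -1.28 (adjusted p = 0.00111 by limma). Without control 4 and without control 5 the call was lost, at adjusted p of 0.0911 and 0.0965, and with 1 library left out it was kept only without control 1 or control 2. It was also not called with quantile, median or TMM scaling, at adjusted p of 0.158, 0.0601 and 0.0575.

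Hist2h2aa1 (ENSMUSG00000064220.6) is an H2A gene at chr3:96245497-96246082 on the plus strand. Its log2 CPM was 0.39, 0.84, 1.44, 2.49 and 2.67 in controls 1 to 5 and 1.15, 1.16, 0.40, 0.23 and -1.69 in stiripentol 1 to 5. The groups overlapped, and stiripentol 5 was far below the rest with 15 reads. The change of -1.32 (SE 0.62) had an adjusted p of 0.130 by limma and was not called. Within the sets it was -1.43 (adjusted p = 0.0414 by limma) in A and -1.24 (adjusted p = 0.0368 by limma) in B, from 1 fit with a mean for each group and set.

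Reads of Hist2h2aa1 could not all be told apart from those of its copy Hist2h2aa2, which lies a few kilobases away on the other strand. All 100-base windows of Hist2h2aa2 and 88.1% of those of Hist2h2aa1 were shared with another member. The 2 rows held 83 and 88 reads in control 1, 102 and 102 in control 2, and 171 and 182 in control 3. In control 5 they held 142 and 0, and in stiripentol 3 and 4 all of the 74 and 68 reads were in Hist2h2aa1. Reads were thus shared nearly evenly in controls 1 to 3 and unevenly in the other 7 libraries. Added together, the pair had log2 CPM of 1.41, 1.83, 2.48, 2.89 and 2.67 in controls 1 to 5 and 1.57, 1.50, 0.40, 0.23 and 0.20 in stiripentol 1 to 5. Control 1 still lay below stiripentol 1 and 2. The change of the sum, an analysis chosen after seeing the data, was -1.48 (adjusted p = 0.0197 by limma).

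In set A 47% of all genes tested were called lower after stiripentol and in set B 26.5%. All 5 histone genes were called lower in set A, and all but Hist3h2a in set B. In control, 3 of the 5 were higher in set A than in set B, where 31.6% of all genes were. These were Hist2h2aa1 by 1.69, Hist3h2a by 1.06 and Hist2h2be by 0.69. Hist1h2bc was lower in set A by a log2 difference of -1.05, where 29.2% of all genes were lower. Genes of S phase moved with this split: 25 of 26 were lower in set A control, with a median difference of -1.27. With stiripentol, 1 of the 26 was called lower, Cdk2, a kinase that drives entry into S phase (-0.50, adjusted p = 0.0289 by limma). None of the 26 was called higher, and 4 passed an unadjusted p under 0.05, as 41.7% of all genes did. Within the sets the calls ran apart, with 4 lower and 10 higher in set A and 10 lower and 1 higher in set B, where 25.8% and 36.9% of all genes were called higher. The part of S phase in the histone levels was not tested.

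**Figure D4:**
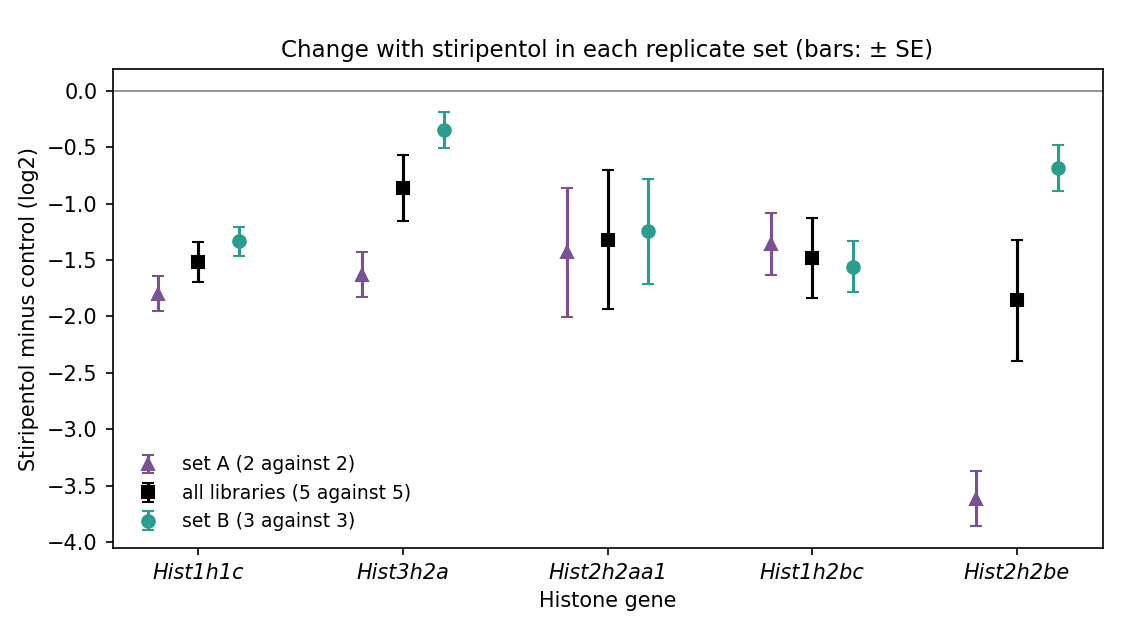
Stiripentol minus control on the log2 scale (y axis) for the 5 tested histone genes (x axis), over all libraries (squares) and within replicate set A (triangles) and set B (circles), with bars of ± SE. All 15 points lie below 0, and the sets stand apart in Hist3h2a and Hist2h2be.

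Summed over the 67 rows, histone reads took 56.5 to 68.3 CPM in control and 32.4 to 34.7 CPM in stiripentol libraries. The groups did not overlap, and the mean difference of the log2 sums was -0.92. The sum of the 5 tested genes went from 43.9 to 53.4 CPM in control to 14.2 to 21.8 CPM in stiripentol libraries. The 62 rows below the filter summed to 7.11 to 18.1 CPM in control and 12.8 to 19.5 CPM in stiripentol libraries, and these ranges overlapped. H1 rows went from 28.3 to 39.9 CPM in control to 10.2 to 14.6 CPM, and H2B rows from 10.1 to 20.5 CPM to 4.59 to 7.42 CPM. H4 rows ran the other way, with 1.40 to 2.81 CPM in control and 3.17 to 6.46 CPM in stiripentol libraries. That gap leans on 1 row, Hist1h4n, at 0 to 0.44 CPM per kilobase in control and 2.28 to 4.75 in stiripentol libraries. Hist1h4n shares 80.7% of its 100-base windows with other H4 genes, so some of its reads could be split between copies. A split between H4 rows would leave their sum unchanged. The mean was higher with stiripentol in 11 of the 13 H4 rows, compared as described below for rows under the filter. All of these rows lay below the filter, and a rise of the whole class was not tested. H3 rows, at 1.61 to 3.57 CPM in control and 2.89 to 3.93 CPM in stiripentol libraries, overlapped.

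**Figure D5:**
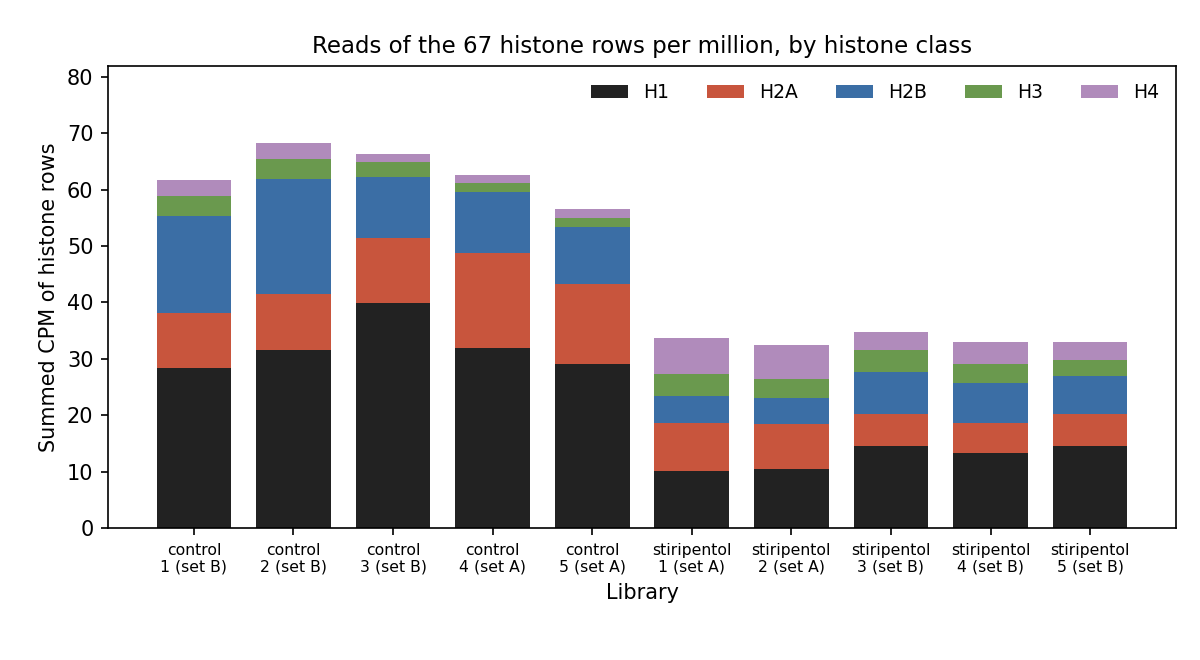
Summed CPM of the 67 histone rows (y axis) in each of the 10 libraries (x axis), stacked by histone class. Every stiripentol bar, at 32.4 to 34.7 CPM, is shorter than every control bar, at 56.5 to 68.3 CPM. The H4 part is taller in each stiripentol bar than in any control bar, a gap that leans on 1 row, Hist1h4n.

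The 62 rows below the filter are described without a test of their own, because few reads stood behind them. The deposited value of 0 reads differed between libraries, so these rows were compared as log2(CPM + 0.1), and only where a library held a read. The mean was higher with stiripentol in 42 of 61 such rows, or 68.9%, against 49.1% of the 13050 such rows of the whole table. By class this was so for 2 of 3 H1 rows, 9 of 17 H2A rows, 11 of 16 H2B rows, 9 of 12 H3 rows and 11 of 13 H4 rows. Their median log2 difference was 0.24, against -0.011 over all such rows. Many of these rows share sequence with another member, Hist1h4n and Hist1h4m over 80.7% and 88.1% of their windows, so such rows are not independent measurements.

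When limma was fitted to all 26335 rows with no filter, 4 of the 67 members were called lower, with 6.63% of all rows, and 3 higher, with 6.47% of all rows. Both shares of the members were near those of all rows. The 4 lower were Hist1h1c, Hist1h2bc, the H3 gene Hist2h3c2 and the H2A pseudogene Hist1h2al. The 3 higher were the H4 gene Hist1h4n, the H3 gene Hist2h3b and the linker histone gene Hist1h1e, chosen here after their values were seen. Hist1h4n had 7, 9, 6, 12 and 0 reads in controls 1 to 5 and 124, 93, 61, 89 and 54 reads in stiripentol 1 to 5. That is a difference of 3.51 on the log2 scale (adjusted p = 0.00226 by limma), and 80.7% of its 100-base windows were shared with other H4 genes. Hist1h1e had 33, 41, 18, 25 and 14 reads in controls 1 to 5 and 108, 85, 50, 67 and 56 in stiripentol 1 to 5, against the direction of its paralog Hist1h1c. The log2 difference of Hist1h1e was 1.27 (adjusted p = 0.0386 by limma). Of its 100-base windows, 24.7% were shared with Hist1h1c, Hist1h1d or Hist1h2be, and its locus overlaps that of Hist1h2be. Hist2h3b and Hist2h3c2, which share 77.1% and 61.6% of their windows with other H3 genes of the Hist2 cluster, differed by 1.97 and -1.38.

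Promoters of the members carried the elements known from histone genes. RefSeq promoter windows of 300 bases (GRCm38.p6, 250 before to 50 after the start) matched 59 of the 67 members. A CCAAT box, searched as CCAAT on both strands, was in 50 of 59 (84.7%), against 37.9% of 27025 promoters. A TATA box, searched as TATAAA on both strands, was in 33 of 59 (55.9%), against 14.2%. The octamer ATTTGCAT, searched on both strands, was in 11 of 59 (18.6%), against 1.75%. All 15 H2B promoters held CCAAT and 5 of 15 the octamer. Windows of some neighbouring members overlap, as for Hist1h2bf and Hist1h2ad, so the same element can be counted for both. Hist1h2bq and Hist1h2br have the same window sequence, so the windows are not independent. The windows of the 2 called genes with an entry are shown, with matches of CCAAT and of the octamer on either strand in capitals.
Hist1h1c, chr13:23738557-23738856, plus strand: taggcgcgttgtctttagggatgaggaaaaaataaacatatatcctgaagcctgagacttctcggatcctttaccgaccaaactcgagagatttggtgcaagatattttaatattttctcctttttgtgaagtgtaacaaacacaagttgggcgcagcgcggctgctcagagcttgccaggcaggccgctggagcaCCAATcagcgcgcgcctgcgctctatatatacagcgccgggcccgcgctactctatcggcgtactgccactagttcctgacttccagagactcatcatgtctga
Hist3h2a, chr11:58954435-58954734, plus strand: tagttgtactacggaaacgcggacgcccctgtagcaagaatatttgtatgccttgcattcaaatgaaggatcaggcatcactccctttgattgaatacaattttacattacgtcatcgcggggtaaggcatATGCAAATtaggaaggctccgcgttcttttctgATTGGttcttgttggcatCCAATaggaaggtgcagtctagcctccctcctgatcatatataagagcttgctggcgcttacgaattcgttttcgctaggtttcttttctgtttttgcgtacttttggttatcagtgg
Both hold at least 1 CCAAT box, the second holds the octamer, and neither holds TATAAA. A match describes the letters in the window and is not a measured binding site.

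Genes that act on the histone loci and on histone mRNA ends showed changes in both directions. Of 25 tested, 2 were called lower and 2 higher, with a median log2 change of -0.061, and 7 passed an unadjusted p under 0.05, as 41.7% of all genes did. Over all genes, 14.1% were called lower and 13.6% higher. In set A, 8 were called lower and 5 higher, where 47% and 25.8% of all genes were. In set B, 8 were called lower and 6 higher, where 26.5% and 36.9% of all genes were. Srrt, a partner of the nuclear cap-binding complex, fell by 1.03 (adjusted p = 0.0164 by limma), with changes of -0.17 in set A and -1.60 in set B. Yy1, a zinc finger transcription factor, fell by 0.75 (adjusted p = 0.000731 by limma). Hinfp, the factor that binds H4 promoters, rose by 0.66 (adjusted p = 0.00862 by limma), and Sympk, a scaffold of 3′ end cleavage, rose by 0.60 (adjusted p = 0.00384 by limma). Slbp differed by -0.60 (adjusted p = 0.126 by limma) and was not called, with differences of -0.15 in set A and -0.90 in set B. Npat, the coactivator of histone gene transcription, differed by 0.16 (adjusted p = 0.511 by limma).

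Most histone genes outside the clusters are read throughout the cell cycle. The 11 tested had a median change of -0.34. Of these, 2 were called lower and none higher, with 4 at an unadjusted p under 0.05. Over all genes, 14.1% were called lower, 13.6% higher, and 41.7% passed that unadjusted threshold. In set A, 5 were called lower and 3 higher, where 47% and 25.8% of all genes were. In set B, 10 were called lower and none higher, where 26.5% and 36.9% of all genes were. H1f0, a linker histone of resting cells, fell by 1.11 (adjusted p = 0.0153 by limma), and H3f3a, which encodes H3.3, fell by 0.90 (adjusted p = 0.00274 by limma). H2afx, one of the 3 other genes with the stem-loop, had log2 CPM of 6.05, 6.13, 5.55, 4.94 and 4.76 in controls 1 to 5 and 2.21, 2.51, 5.08, 5.06 and 5.08 in stiripentol 1 to 5. Its treated libraries of set A stood far below all others, as in Hist2h2be. The change of H2afx was -1.50 (adjusted p = 0.0970 by limma) over all libraries, -2.49 in set A and -0.84 in set B. H2afz and H3f3b differed by -0.25 and -0.32 and were not called.

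Of 22 genes of histone chaperones, which carry histones to and from DNA, 1 was called lower and 5 higher, with a median change of 0.19 and 11 at an unadjusted p under 0.05. Over all genes 14.1% were called lower, 13.6% higher, and 41.7% passed that unadjusted threshold. Within set A and within set B, 5 were called lower and 9 higher. Of all genes, 47% were called lower and 25.8% higher in set A, and 26.5% and 36.9% in set B. The lower one was Nap1l4, an H2A-H2B chaperone, at -0.57. Ssrp1, a subunit of the FACT complex, rose by 0.77 (1.38 in set A and 0.37 in set B) and Supt6, an elongation factor that handles nucleosomes, by 0.65. Hjurp, the chaperone of the centromeric H3 variant, rose by 0.61 and Npm1 by 0.54. Mcm2, a subunit of the replicative helicase that also binds histones, differed by 0.58 (adjusted p = 0.0682 by limma), and Pcna, the clamp of the replication fork, by -0.053 (adjusted p = 0.910 by limma). The proliferation marker Mki67 rose by 0.93 (adjusted p = 0.0331 by limma), with higher values in both sets. Of the RNAs without a poly(A) tail listed beside the histones, 10 had rows and only Rn7sk, the RNA that holds P-TEFb inactive, passed the filter. Rn7sk rose by 1.29 (adjusted p = 0.0143 by limma).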

How the data were processed

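RNA of 5 control and 5 stiripentol cultures was analysed from 1 table. The authors deposited log2 CPM for 26335 rows, made with GENAVi per their methods. The build in the submitters' processing notes is mm10, and an aligner and annotation are not given in the sources used here. The table's 10 columns of the authors' group means, ratios, p-values and q-values were not used. Whole reads were recovered from 100% of values (tolerance 0.1 read), with totals of 22375625 to 65299372; depth describes counting error only. Groups were compared with limma 3.58.1 in R 4.3.3 (mean-variance trend) on the 12306 rows whose mean exceeded 0, Benjamini-Hochberg adjusted, with no covariate. A 4-mean fit (group by replicate set) gave values within sets and their difference. Limma voom on the recovered reads called 1864 genes lower and 1762 higher. The fit was tested on simulated data without replicate sets, so that test does not cover differences between the sets.

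The members, gene lists and replicate sets were chosen with earlier results of these data known. Named genes are all tested members, up to 4 called rises and falls of each list, and Slbp, Npat, H2afz, H2afx, H3f3b, Mcm2 and Pcna. Markers of cell type were checked as described. The result of 1 marker gene is not reported here. Sequences came from GENCODE M21 transcripts and RefSeq promoters. Python 3.11.15 was used. Alternatives were each library left out, other scalings, filters, pseudocounts of 0.1 and 1 CPM, a replicate block and each set alone. Added after seeing the data were the 7 libraries of 1 added amount and 1 mean per group and set. The summed copies and log2(CPM + 0.1) for rows below the filter were also added then.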

Additional observations from a re-analysis of the deposited data

Results flagged for a closer look

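The change of Hist2h2be with stiripentol differed between the 2 replicate sets by -2.93 on the log2 scale (adjusted p = 1.63e-05 by limma), with all 5 stiripentol libraries below all 5 controls. The change of Hist3h2a differed between them by -1.28 (adjusted p = 0.00111 by limma). Both were flagged because a test of the difference itself passed. A test for 1 library far from its group was run on 16 groups of 5 values, for the 5 tested genes and 3 summed levels, and flagged 0, where chance flags about 1 in 20.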

How the results depend on the processing

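All 5 tested genes stayed lower with stiripentol in every alternative that could test them. Hist1h1c was called in 24 of 25 alternatives, Hist1h2bc in 22 of 25, Hist2h2be in 16 of 24, Hist3h2a in 8 of 25 and Hist2h2aa1 in 3 of 24. For Hist2h2aa1, 1 of these 3 was the sum of its reads with those of Hist2h2aa2. The number of members called lower was 2 to 4 with 1 library left out. It was 2 with the replicate block and 2 with a mean log2 CPM above 1 (where 3 members were tested). It was 2 with the 7 libraries of 1 added amount and 0 with 1 mean per group and replicate set. That last fit called 0 genes in all, with 1116 at an unadjusted p under 0.05. Same-numbered libraries were not paired, since the correlations of their deviations were -0.24 to 0.06 and 0 of 5 controls correlated best with their own number. With no filter, 3 members were called higher and the median change was 0.28 over the 67 rows, of which 41 of the 62 untested had 0 reads in some library, a value that differed between libraries. The number whose change differed between the sets was 2 to 4 with 1 library left out, 7 with no filter and 1 with a mean above 1. The number that differed between the sets in control was 2 to 4 with 1 library left out, 10 with no filter and 2 with a mean above 1. The difference of the log2 sums was -0.81 with trimmed-mean (TMM) scaling. Scalings moved the median of all genes from -0.056 to between 0.026 and 0.046.

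Directions of uncalled list genes changed in some alternatives, and the cause was not tested. H2afz was 0.30 in set A alone and 0.32 with the 7 libraries of 1 added amount, where H3f3b was 0.29 and Slbp 0.055. Pcna was 0.11 in set A alone, 0.030 with median centring, 0.049 with TMM scaling, 0.60 with the 7 libraries and -0.22 to 0.12 with 1 library left out. Few reads limit the 62 rows below the filter.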
